A study of Mus musculus with 36 samples.

Results

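The striatal neuron receptor and signalling genes are 9 genes by which the projection neurons of the striatum receive dopamine, acetylcholine and adenosine and turn these signals into changes of cyclic AMP. They are Drd1, Drd2, Adora2a, Gpr6, Chrm4, Adcy5, Pde10a, Ppp1r1b and Arpp21. Members were the probe sets annotated on the array platform to exactly 1 of these symbols. This found 20 probe sets of 8 genes among 45101 probe sets, of which those with a single symbol covered 18193 genes. No probe set was paired with Adora2a in the annotation used, so that gene was not analysed here.

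Most neurons of the striatum are projection neurons of a direct or an indirect pathway. The direct pathway carries the dopamine receptor Drd1, which stimulates adenylate cyclase, together with the muscarinic receptor Chrm4, which inhibits it. The indirect pathway carries the inhibitory dopamine receptor Drd2 and the receptors Adora2a and Gpr6, which raise cyclic AMP. In both pathways Adcy5 makes cyclic AMP, Pde10a breaks it down, and protein kinase A phosphorylates Ppp1r1b (DARPP-32), which then inhibits protein phosphatase 1, and Arpp21, which binds calmodulin when phosphorylated. Dopamine neurons of the midbrain also carry Drd2, as an autoreceptor, and cortical neurons carry Drd1 and Arpp21.

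The samples were 36 Affymetrix mouse arrays of the ventral tegmental area (VTA), the nucleus accumbens (NAC) and the prefrontal cortex (PFC), from male C57B1/6J mice that had gone through conditioned place preference. The modafinil groups were injected with 65 mg per kg on alternate days between days 3 and 10 and with saline on the others, the vehicle groups received saline only, and tissue was taken on day 11, 24 h after the last dose. Each treatment had 5 arrays from VTA, 5 from NAC and 8 from PFC, all made from tissue punched 1 mm wide out of slices 100 µm thick. RNA of several tissue pieces was pooled for an array where its integrity allowed, and the labels do not tie an array to 1 animal, so p-values measure the spread between arrays.

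Values are log2 intensities, and 1 probe set's level was not set against another's. The level of a gene was read from its leading probe set, the one with the highest mean over all arrays. The arrays of PFC lay on another scale, with medians of 7.21 to 7.27 against 6.76 to 6.81 in VTA and 6.79 to 6.90 in NAC. Levels across the 3 regions are therefore given after quantile normalization of all arrays, and changes with modafinil as deposited. Vehicle NAC array 1 was compressed at the top of its range, with a 99th percentile of 11.45 against 11.91 to 11.95 in the other NAC arrays, and modafinil PFC array 3 stood apart in several of the genes. In vehicle mice 8 of 9 tested dopamine neuron markers were lower in NAC than in VTA, 24 of 25 tested striatal projection neuron genes were higher in NAC, and 16 of 17 tested cortical neuron markers were higher in PFC than in VTA. Probe sets were tested if their mean over the arrays of a fit was high enough, so a gene could enter through the region where it was high. Cortical markers were also present in NAC, where 11 of 17 were called higher than in VTA and their mean level varied from 7.93 to 9.42 between vehicle arrays as deposited.

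In vehicle mice NAC had the highest level of the 3 regions for all 8 genes in their leading probe sets. The differences between NAC and VTA ran from 1.19 for Drd2 to 5.00 for Drd1 on the log2 scale, and those between NAC and PFC from 0.78 for Chrm4 to 5.51 for Gpr6. The order of the other regions differed by gene. Drd2 was far higher in VTA than in PFC, while Drd1 and Arpp21 were higher in PFC than in VTA. In tissue of many cells, fewer cells of a type and less RNA per cell cannot be told apart.

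**Figure D1:**
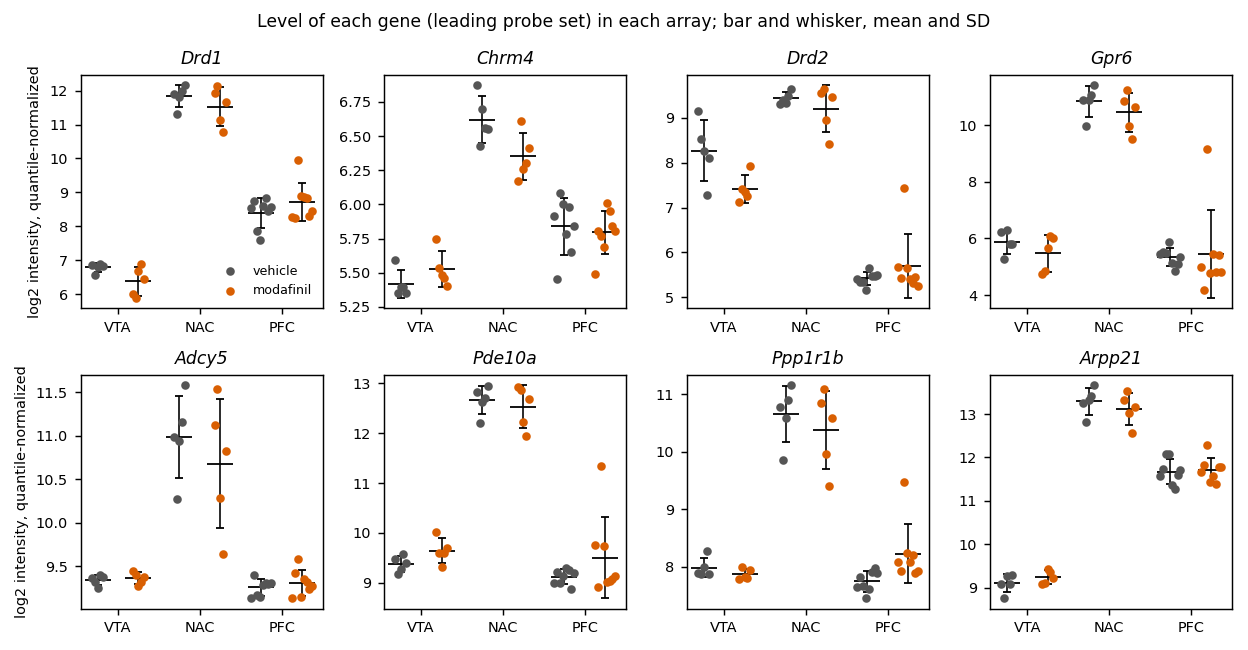
Quantile-normalized log2 level of each gene's leading probe set in each of the 36 arrays, by region; points are arrays, grey for vehicle and orange for modafinil, and bars with whiskers are mean and SD. All 8 genes are highest in NAC, Drd2 is intermediate in VTA and lowest in PFC, and 1 modafinil PFC array lies far above the others for Gpr6 (9.15) and Drd2 (7.43).

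Of the 17 member probe sets tested, 16 were called higher in NAC than in VTA, where 30.3 percent of all tested probe sets were called higher and 28.8 percent lower (limma, Benjamini-Hochberg adjusted p under 0.05). Against PFC, 14 of 17 were called higher in NAC and 3 lower, against 27.3 and 30.8 percent of all tested probe sets. Between PFC and VTA, 7 were called higher in PFC and 6 lower, against 33 and 32.1 percent. That split depends on the scaling, although 13 were called either way. On the deposited values Gpr6 and Pde10a 1439618_at and 1432490_a_at were no longer called lower (limma adjusted p = 0.89, 0.272 and 0.284). Adcy5 1455296_at and 1447696_x_at and Pde10a 1458499_at were then called higher (limma adjusted p = 0.0372, 0.000195 and 0.00662). The filter used the mean over all vehicle arrays, so a probe set dim in VTA or PFC could be tested through its brighter arrays of another region. In the modafinil comparisons Gpr6 and Pde10a 1419390_at were below the filter within VTA and within PFC. So were Drd1 1455629_at within VTA, and Drd2 and Pde10a 1432490_a_at within PFC. Such probe sets could hardly be called other than higher in NAC than in the region where they were dim. This limits the comparison with the shares over all. The NAC to VTA differences below were fitted on the deposited values and the others on the quantile-normalized values.

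The 4 receptor genes are shown with the bases just before their transcription start, so that their letters can be compared. They were the only members with a window before the outermost start, and their peak in NAC was shared by all 8 genes. The windows are RefSeq sequence of build GRCm38.p6, read 5′ to 3′ on the gene's strand, and lie before the outermost start in the table. Capitals mark the cyclic AMP response element half-site TGACG and the GC box GGGCGG, searched on both strands. The windows are chr13:54055659-54055908, minus strand, for Drd1, chr2:91921939-91922188, plus strand, for Chrm4, chr9:49340153-49340359, plus strand, for Drd2, and chr10:41072291-41072540, minus strand, for Gpr6.
Drd1: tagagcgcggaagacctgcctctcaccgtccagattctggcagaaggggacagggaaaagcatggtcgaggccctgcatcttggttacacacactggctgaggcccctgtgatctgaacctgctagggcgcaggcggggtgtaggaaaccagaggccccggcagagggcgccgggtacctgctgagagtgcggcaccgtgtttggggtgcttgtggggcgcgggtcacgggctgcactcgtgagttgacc
Chrm4: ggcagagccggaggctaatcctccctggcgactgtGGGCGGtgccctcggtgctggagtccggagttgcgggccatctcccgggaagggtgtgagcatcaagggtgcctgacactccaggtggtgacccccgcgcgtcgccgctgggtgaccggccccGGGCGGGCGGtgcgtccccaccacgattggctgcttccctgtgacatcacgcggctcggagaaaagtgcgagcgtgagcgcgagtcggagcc
Drd2: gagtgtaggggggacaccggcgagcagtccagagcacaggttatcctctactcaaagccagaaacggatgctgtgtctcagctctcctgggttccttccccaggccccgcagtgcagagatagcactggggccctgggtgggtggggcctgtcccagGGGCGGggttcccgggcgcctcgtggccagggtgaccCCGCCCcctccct
Gpr6: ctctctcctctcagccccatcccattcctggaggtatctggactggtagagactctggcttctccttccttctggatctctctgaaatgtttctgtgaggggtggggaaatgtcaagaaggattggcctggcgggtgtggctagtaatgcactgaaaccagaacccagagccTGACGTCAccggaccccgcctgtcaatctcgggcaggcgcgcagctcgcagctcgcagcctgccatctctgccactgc
The Gpr6 window holds the full palindrome TGACGTCA, in which the half-site occurs on both strands. The palindrome occurs in 1.55 percent of 32817 windows of 250 bases before a start, and the half-site in 17.7 percent. The GC box occurs 3 times in the Chrm4 window, with overlap, and 2 times in that of Drd2, and in 32.7 percent of all windows. The Drd2 window holds 207 bases, fewer than the 250 from which the shares were taken. Neither motif was found in the Drd1 window, and TATAAA, which 12.4 percent of windows hold, was in none of the 4. Drd1 has 2 starts in the table, and only the bases before the outermost one are described here. The motifs were chosen after the levels were known, and a match is a description of the letters.

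Drd1, the stimulatory dopamine receptor of the direct pathway, read 6.85, 6.58, 6.81, 6.89 and 6.82 in the vehicle VTA arrays. In vehicle NAC it read 11.89, 11.31, 11.81, 11.996 and 12.16. In vehicle PFC its lowest value was 7.60, its median 8.56 and its highest 8.84. The 3 regions did not overlap, with NAC highest and VTA lowest. Drd1 was higher in NAC than in VTA by 5.00 (SE 0.21, 31.9-fold, adjusted p = 2.1e-13) and than in PFC by 3.43 (10.8-fold, adjusted p = 2.9e-11), and in PFC than in VTA by 1.61 (adjusted p = 2.02e-07). Its other probe set, 1455629_at, gave 4.48 between NAC and VTA.

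Chrm4, the inhibitory muscarinic receptor of the same neurons, read 5.59, 5.35, 5.39, 5.40 and 5.35 in vehicle VTA. In vehicle NAC it read 6.87, 6.42, 6.70, 6.56 and 6.55. Values in vehicle PFC ran from 5.46 to 6.08 with a median of 5.88. The NAC arrays lay above all arrays of the other regions, while VTA and PFC overlapped. Its only probe set lay below the filter on dim probe sets in the comparisons of regions, so the differences of 1.33 from VTA and 0.78 from PFC have no adjusted p.

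Drd2, the inhibitory dopamine receptor of the indirect pathway and of dopamine neurons, read 9.31, 9.41, 9.34, 9.48 and 9.65 in vehicle NAC. In vehicle VTA it read 9.16, 8.54, 8.26, 7.28 and 8.10. Vehicle PFC arrays had a lowest value of 5.16, a median of 5.44 and a highest of 5.65. The regions did not overlap, although vehicle VTA array 1 came close to the NAC arrays, and the VTA arrays were the most spread. Drd2 was higher in NAC than in VTA by 1.19 (SE 0.22, 2.28-fold, adjusted p = 0.000117) and than in PFC by 4.02 (16.2-fold, adjusted p = 9.97e-12), and lower in PFC than in VTA by 2.85 (adjusted p = 1.69e-10).

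Gpr6, a constitutively active receptor of the indirect pathway that raises cyclic AMP, read 10.90, 9.95, 10.89, 11.08 and 11.41 in vehicle NAC. In vehicle VTA it read 6.22, 5.26, 6.29, 5.81 and 5.79. In vehicle PFC its lowest value was 4.85, its median 5.39 and its highest 5.88. NAC lay far above both other regions, which overlapped. The difference was 4.95 from VTA (SE 0.23, 31-fold, adjusted p = 1.1e-12) and 5.51 from PFC (45.4-fold, adjusted p = 5.32e-13). Between PFC and VTA it was −0.53 (adjusted p = 0.0342), but −0.03 (adjusted p = 0.89) on the deposited values, so that order is not settled.

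Adcy5, the main adenylate cyclase of the striatum, read 10.99, 10.27, 10.94, 11.16 and 11.58 in vehicle NAC. In vehicle VTA it read 9.36, 9.32, 9.25, 9.39 and 9.38. Values in vehicle PFC ran from 9.13 to 9.40 with a median of 9.29. NAC lay above the other regions in every array, and VTA and PFC overlapped. The difference was 1.52 from VTA (SE 0.15, 2.86-fold, adjusted p = 6.4e-08) and 1.73 from PFC (3.32-fold, adjusted p = 3.39e-09). PFC and VTA were not called different (adjusted p = 0.591), but on the deposited values PFC was higher by 0.32 (adjusted p = 0.0372), so the order of these regions depends on the scaling. Of its other probe sets, 1447696_x_at was also called higher in NAC against both regions, and 1439829_at and 1443080_at were below the filter, with −0.02 and −0.07 between NAC and PFC, within their SEs of 0.08 and 0.09.

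Pde10a, the phosphodiesterase that breaks down cyclic AMP and cyclic GMP in projection neurons, read 12.83, 12.20, 12.63, 12.71 and 12.94 in vehicle NAC. In vehicle VTA it read 9.47, 9.18, 9.28, 9.58 and 9.39. Vehicle PFC arrays had a lowest value of 8.88, a median of 9.15 and a highest of 9.30. NAC stood clear of both other regions, which overlapped. The difference was 3.17 from VTA (SE 0.14, 9.01-fold, adjusted p = 8.24e-13) and 3.55 from PFC (11.7-fold, adjusted p = 1.25e-14). All 5 of its probe sets were called higher in NAC in both comparisons, with 1.91 to 3.21 from VTA. Between PFC and VTA the leading probe set gave −0.26 (adjusted p = 0.0332), and 0.15 (adjusted p = 0.272) on the deposited values.

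Ppp1r1b, the phosphatase inhibitor DARPP-32, read 10.79, 9.85, 10.59, 10.91 and 11.16 in vehicle NAC. In vehicle VTA it read 7.89, 7.88, 7.99, 8.27 and 7.88. In vehicle PFC its lowest value was 7.46, its median 7.75 and its highest 7.99. VTA and PFC overlapped, and every NAC array lay above them. The difference was 2.60 from VTA (SE 0.17, 6.06-fold, adjusted p = 1.06e-10) and 2.91 from PFC (7.5-fold, adjusted p = 3.47e-11), and PFC and VTA were not called different (adjusted p = 0.193).

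**Figure D2:**
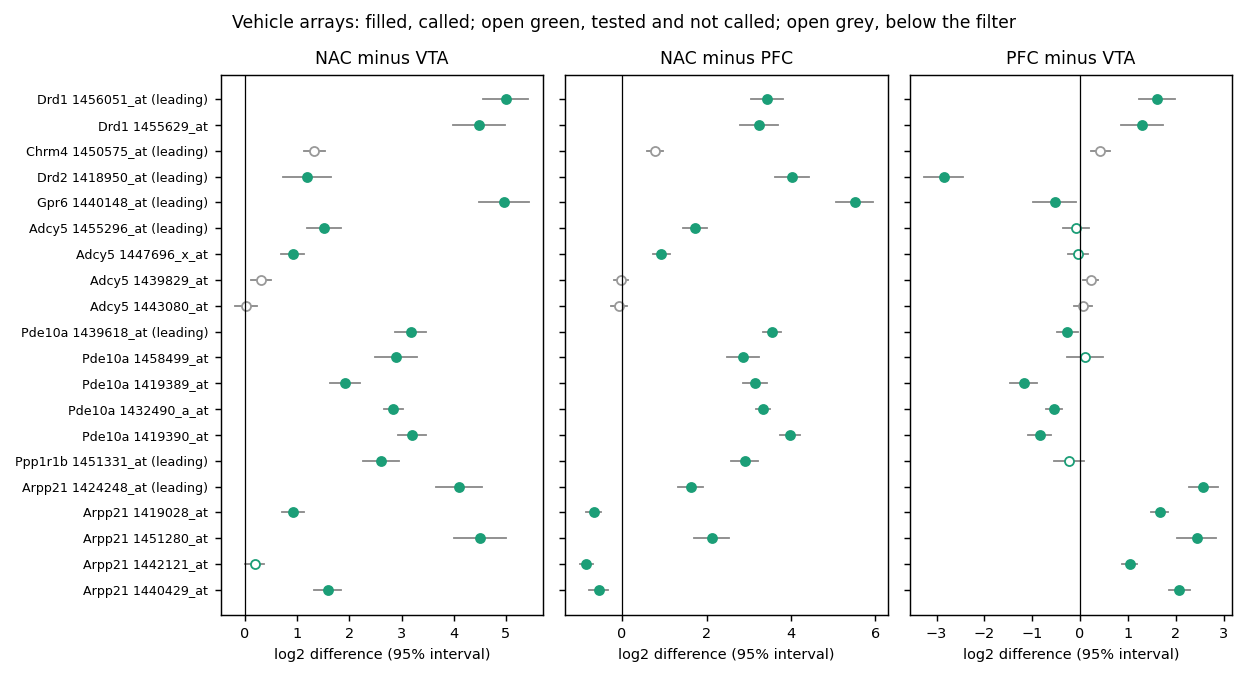
Log2 difference between regions in vehicle arrays for the 20 member probe sets, with 95% intervals; filled points were called, open green points were tested and not called, and open grey points lay below the filter. All 20 points lie to the right of 0 in NAC minus VTA and 15 in NAC minus PFC, where 3 Arpp21 probe sets and, close to 0, 2 of Adcy5 lie to the left.

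Arpp21, a phosphoprotein regulated by cyclic AMP, had tested probe sets that disagreed on the order of NAC and PFC. Its leading probe set, 1424248_at, read 13.26, 12.81, 13.34, 13.43 and 13.66 in vehicle NAC and 9.09, 8.76, 9.27, 9.09 and 9.29 in vehicle VTA. Values in vehicle PFC ran from 11.27 to 12.08 with a median of 11.66. The regions did not overlap, with NAC above PFC and PFC above VTA, and NAC exceeded PFC by 1.62 (adjusted p = 2.37e-08) and VTA by 4.10 (SE 0.21, 17.2-fold, adjusted p = 5.23e-12). The probe set 1451280_at, which shares its source sequence in the annotation, gave 2.12 and 4.50.

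The other 3 Arpp21 probe sets had PFC highest. The probe set 1419028_at read 10.07, 10.39, 10.09, 10.12 and 9.75 in vehicle NAC and between 10.69 and 10.83 in vehicle PFC. It was lower in NAC than in PFC by 0.67 on the log2 scale, written −0.67 (adjusted p = 1.8e-06), 1442121_at gave −0.85 (adjusted p = 1.41e-08) and 1440429_at −0.56 (adjusted p = 0.000215). In each of the 3 the NAC and PFC arrays did not overlap. Against VTA, NAC was higher by 0.92 for 1419028_at and 1.58 for 1440429_at, and the difference of 0.19 for 1442121_at was not called (adjusted p = 0.0779). All 5 were called higher in PFC than in VTA, the leading one by 2.58. The annotation used gives no transcript positions for these probe sets, so which transcripts they read was not tested.

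**Figure D3:**
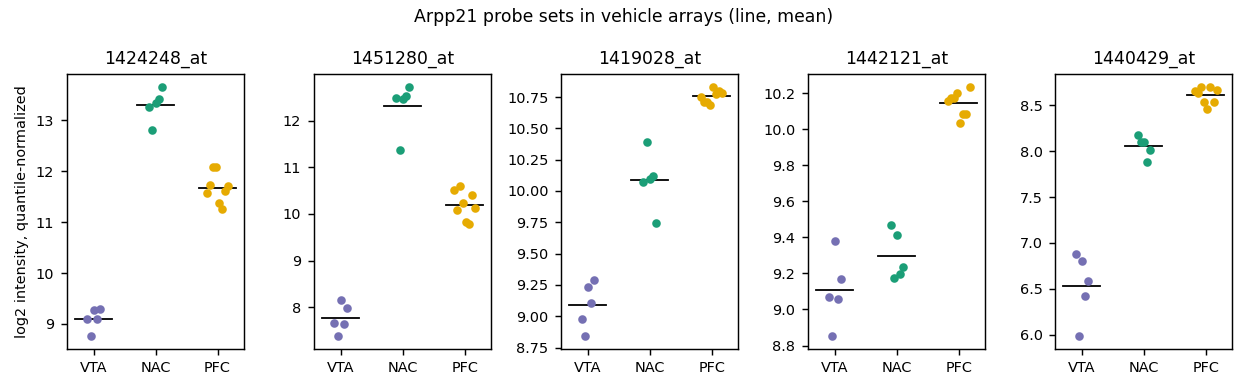
Quantile-normalized log2 levels of the 5 Arpp21 probe sets in vehicle arrays, with 1 point per array and a line at each mean. The 2 probe sets on the left (1424248_at and 1451280_at) are highest in NAC, and the other 3 are highest in PFC.

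The other genes of the pathway were called in both directions, as were probe sets over all. Of 49 tested cyclic AMP and protein phosphatase genes, 24 were called higher and 11 lower in NAC than in VTA. Of all tested probe sets 30.3 percent were called higher and 28.8 percent lower. The median difference was 0.27 against 0.01 over all tested probe sets. Akap5, which anchors protein kinase A, was higher in NAC by 3.36 and Arpp19, a phosphatase inhibitor, by 2.81, while the adenylate cyclases Adcy7 and Adcy8 gave −2.36 and −1.94. Against PFC 17 were called higher in NAC and 19 lower, beside 27.3 and 30.8 percent of all tested probe sets. The median was 0.04 against −0.02. There Gng7, a G protein subunit of striatal neurons, was higher in NAC by 2.83 and Rgs9, which speeds the shut-off of G proteins, by 2.28, and Prkar1b, a subunit of protein kinase A, gave −1.03. Between PFC and VTA 23 were called higher in PFC and 10 lower, beside 33 and 32.1 percent of all tested probe sets. They were led by Arpp19 at 2.79, Ensa at 1.22 and Rasgrp2 at −1.95.

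Of 14 related receptor genes 7 were matched to a probe set, and 3 of these were above the filter. The muscarinic receptor Chrm1 was higher in NAC than in VTA by 1.81 and Gpr12, a receptor related to Gpr6, by 0.76. Between NAC and PFC Gpr12 was higher in NAC by 0.70, while Chrm1 gave 0.18 (adjusted p = 0.0341) but −0.26 (adjusted p = 0.00117) on the deposited values, so it has no settled direction. In the list of striatal projection neuron genes, 24 of 25 tested were called higher in NAC than in VTA, with a median of 2.09 against 0.01 over all tested probe sets, and 24 of 25 higher than in PFC, with a median of 2.06. The exception against VTA was the transcription factor Ebf1, at −0.69 (adjusted p = 0.012). In the modafinil comparisons 22 genes of this list passed the filter in VTA and 20 in PFC. Some could thus enter the comparison of regions through their NAC arrays.

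Likeness was measured as Pearson's r over the 36 quantile-normalized arrays, which share their regions, so the values describe the regional pattern. The genes most like each member were Ppp1ca for Drd1 (0.973), Oprk1 for Drd2 (0.957), Spata13 for Gpr6 (0.981), Klf5 for Chrm4 (0.921), Pde1b for Adcy5 (0.978), Sh3rf2 for Pde10a (0.982), Ido1 for Ppp1r1b (0.985) and Actn2 for Arpp21 (0.988). Of these Ppp1ca, the catalytic subunit of protein phosphatase 1 that Ppp1r1b inhibits, and Pde1b were in the pathway list. After the group means were taken out, the mean of the 8 genes was most like Rgs9 (0.915), Sh3rf2 (0.899) and Gng7 (0.898). Without modafinil PFC array 3 these were 0.864, 0.799 and 0.834, and Ric8b (0.851) and Ido1 (0.849) came after Rgs9 among the 10 genes named.

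Modafinil was compared with vehicle within each region. In VTA none of the 14 member probe sets tested was called, where 0.259 percent of all tested probe sets were (limma). An unadjusted p under 0.05 was found for 6 of the 14, against 5695 of 27022 over all tested probe sets. The groups did not overlap for 2 of the 14, both of Pde10a, against 5.74 percent of all tested probe sets. Drd2 was lower and some probe sets of Pde10a and Arpp21 were higher, each short of the threshold.

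Drd2 read 9.03, 8.31, 8.07, 7.09 and 7.89 in the vehicle VTA arrays as deposited. In the modafinil VTA arrays it read 6.88, 7.12, 7.17, 7.03 and 7.70. All 5 modafinil arrays lay below the vehicle mean, but the groups overlapped, since vehicle array 4 was as low as the modafinil arrays. The change was −0.90 (SE 0.28, adjusted p = 0.119), and over the alternatives its adjusted p ran from 0.0549 to 0.221.

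Markers of other neurons differed between the same arrays. All 15 tested dopamine neuron markers were lower with modafinil, none of them called, with a median of −1.21 against −0.05 over all tested probe sets. Their mean level was 8.13 to 9.69 in vehicle and 7.19 to 8.63 in modafinil arrays. Sncg, a synuclein, gave −0.85 (adjusted p = 0.0523) and the growth factor receptor Ret −1.29 (adjusted p = 0.0875). Of 13 tested thalamic and midbrain excitatory neuron markers 12 were higher, with a median of 1.00 and levels of 8.25 to 9.57 against 9.30 to 10.00, led by Rora at 1.33 (adjusted p = 0.0514) and Prkcd at 2.16 (adjusted p = 0.0523). All 15 oligodendrocyte markers tested were lower, with a median of −0.19, and none was called. Of all probe sets tested in VTA, 36.2 percent were higher with modafinil. With quantile normalization or a stricter filter Sncg (limma adjusted p = 0.0499 and 0.0411), Rora (0.0371 and 0.0411) and Prkcd (0.0389 and 0.0411) passed the threshold. In a fit of all 36 arrays Sncg (9.41e-05), Rora (4.92e-05), Prkcd (3.84e-06) and Ret (0.00205) passed it. Sncg also passed with a trended and robust variance (0.0471), and Rora (0.0242) and Prkcd (0.0309) with array weights. Rora was also called without vehicle array 5 (0.0499) or modafinil array 1 (0.0339), and Prkcd without vehicle array 5 (0.0426). No probe set at all, and so no marker, was called with no filter or with a replicate block. Nor was any called without vehicle array 1, 2 or 3 or without modafinil array 4. With 1 probe set per gene, 1 was called over all genes. The part of these markers in the change of Drd2 was not tested.

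Within the treatment groups Drd2 followed the dopamine markers from array to array. Over the 10 VTA arrays, as deviations from group means, Pearson's r was 0.928 and Spearman's rho 0.988, each with a two-sided exact permutation p (arrays permuted within treatment groups) of 6.94e-05, the smallest it can give, and 0.000208 adjusted over the 3 relations computed. Without the 2 arrays farthest from the median r was 0.880. The 3 relations were chosen after the values were seen and share their arrays with the comparisons, so they describe these arrays and are no independent evidence.

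**Figure D4:**
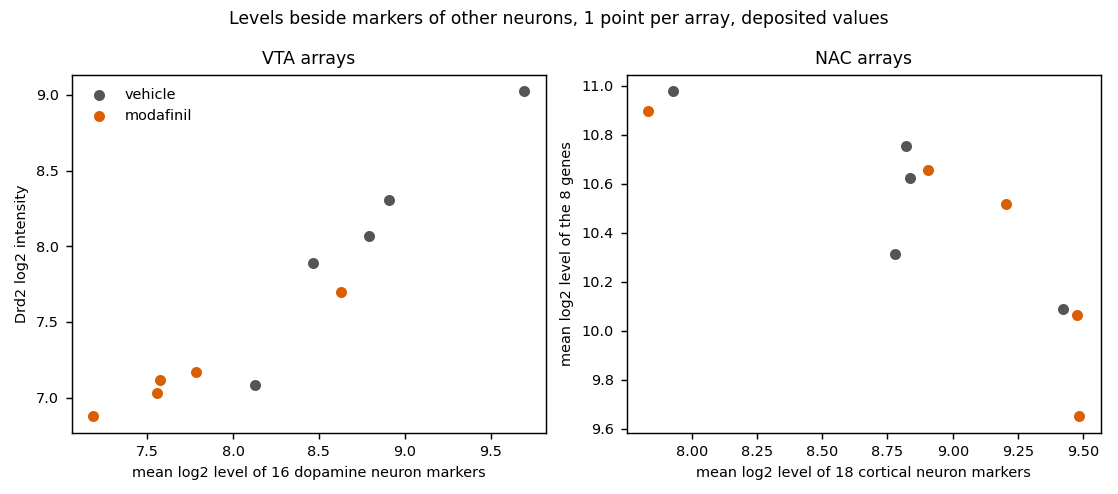
Left, deposited log2 level of Drd2 against the mean level of 16 dopamine neuron markers in the 10 VTA arrays; right, mean level of the 8 genes against that of 18 cortical neuron markers in the 10 NAC arrays. Drd2 rises with the dopamine markers in both treatment groups, and the 8 genes fall as the cortical markers rise.

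Pde10a read 7.73, 7.52, 7.81, 7.47 and 7.68 in vehicle VTA by the probe set 1458499_at. With modafinil it read 8.42, 7.92, 8.17, 7.88 and 8.16. Every modafinil array lay above every vehicle array. The change was 0.47 (SE 0.10, limma adjusted p = 0.0583), past the threshold under quantile normalization (0.0387), a stricter filter (0.0457) and array weights (0.0347). Over all the alternatives its limma adjusted p ran up to 0.262, and it was not called with any array left out. The probe set 1419389_at gave 0.35 (adjusted p = 0.0686), also without overlap, and the leading one 0.19 (adjusted p = 0.341), so the probe sets of the gene differed.

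Of Arpp21, 1419028_at gave 0.34 (adjusted p = 0.104) and 1440429_at 0.34 (adjusted p = 0.208) in VTA, with all 5 modafinil arrays above the vehicle mean, and the leading probe set gave 0.10 (adjusted p = 0.663). Drd1 read 6.65, 6.35, 6.59, 6.68 and 6.58 with vehicle and 5.77, 5.74, 6.48, 6.66 and 6.22 with modafinil. Modafinil arrays 1 and 2 were the lowest and the groups overlapped. The change was −0.39 (adjusted p = 0.199). Ppp1r1b gave −0.15 (adjusted p = 0.297) and Adcy5 −0.03 (adjusted p = 0.805), while Gpr6 and Chrm4 were below the filter.

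In NAC, where these genes were highest, none of 18 member probe sets tested was called, and neither was any probe set on the array, 0 percent of 27022 (limma). At an unadjusted p under 0.05 there were 874 over all tested probe sets and 1 among the members. No member's groups were free of overlap, against 0.477 percent of all tested. Of the 18, 13 were lower and 5 higher, where 43.5 percent of all tested probe sets were higher.

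Chrm4 was the member with the smallest p. It read 6.70, 6.28, 6.56, 6.43 and 6.40 in vehicle NAC as deposited. With modafinil it read 6.10, 6.46, 6.08, 6.07 and 6.26. All 5 modafinil arrays lay below the vehicle mean but the groups overlapped through modafinil array 2. The change was −0.28 (SE 0.10, limma unadjusted p = 0.0156, adjusted p = 1).

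For the other leading probe sets the arrays of a group differed more than the groups. Drd1 read 11.30, 11.07, 11.64, 11.81 and 12.01 with vehicle and 11.73, 11.97, 10.92, 10.58 and 11.48 with modafinil, a change of −0.23 (SE 0.26). Modafinil arrays 3 and 4 were the lowest. In these arrays 0 of the 8 genes lay above their group mean, as in vehicle array 2, and in modafinil arrays 1, 2 and 5 there were 7, 8 and 8. Gpr6 gave −0.35 (SE 0.31), Drd2 −0.25 (SE 0.20), Adcy5 −0.25 (SE 0.31) and Ppp1r1b −0.24 (SE 0.29). The leading probe sets of Pde10a and Arpp21 gave 0.02 each, and −0.10 and −0.19 without vehicle array 1, the compressed one. The other Pde10a probe sets were all negative, at −0.34 (SE 0.29) for 1458499_at, −0.22 (SE 0.28) for 1419389_at, −0.23 (SE 0.16) for 1432490_a_at and −0.14 (SE 0.18) for 1419390_at. Drd1 1455629_at gave −0.28 (SE 0.29), Adcy5 1447696_x_at −0.05, and the other Arpp21 probe sets −0.13 to 0.27.

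Other striatal genes and cortical markers differed in opposite directions in these arrays. All 26 tested striatal projection neuron genes were lower with modafinil, with a median of −0.20 against −0.01 over all tested probe sets, and 15 of 17 cortical neuron markers were higher, with a median of 0.19. None was called. The cortical list's mean level was 7.93 to 9.42 in vehicle and 7.83 to 9.48 in modafinil arrays. Over the 10 NAC arrays, as deviations from group means, the mean of the 8 genes and the cortical list had r of −0.828 and rho of −0.903 (exact permutation p = 0.00625 and 0.00174, adjusted 0.00625 and 0.00260), and r of −0.798 without the 2 farthest arrays. For the mean of the 3 Arpp21 probe sets that were highest in PFC, the sign was opposite, with r of 0.787 and rho of 0.685 (exact permutation p = 0.00486 and 0.0624, adjusted 0.00625 and 0.0624) and r of 0.537 without the 2 farthest arrays. These relations too were chosen after the values were seen and adjusted only over the relations computed, so their p-values are no independent evidence. The part of the cortical markers in the treatment comparison was not tested.

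In PFC none of 13 member probe sets tested was called, where 0.0518 percent of all tested probe sets were (limma). An unadjusted p under 0.05 was found for 1 of the 13, against 3181 of 27022 over all tested. No member's groups were free of overlap, against 0.104 percent of all tested. Of the 13, 10 were higher and 3 lower, where 37.5 percent of all tested probe sets were higher.

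Ppp1r1b was the member with the smallest p. Vehicle PFC arrays had a lowest value of 7.77, a median of 7.98 and a highest of 8.22. With modafinil its lowest value was 8.13, its median 8.29 and its highest 9.72. All 8 modafinil arrays lay above the vehicle mean, with overlap between the groups. The change was 0.47 (SE 0.17, adjusted p = 0.345), and 0.29 (adjusted p = 0.217) without modafinil array 3, with 7 of 7 above the vehicle mean.

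That array carried the highest value of its group in 14 of the 20 member probe sets. Gpr6 read 9.38 in it against 5.68 in the next highest, Drd2 7.67 against 6.02, Pde10a 11.61 against 10.01 and Drd1 10.25 against 9.16. The mean level of the striatal list was 9.12 in it against a group median of 8.14, and that of the cortical list was 9.91 against 10.08 to 10.27 in the other modafinil arrays. Without it the change of Gpr6 went from 0.15 to −0.37, that of Drd2 from 0.32 to 0.08, that of Drd1 from 0.30 to 0.11 and that of the leading Pde10a probe set from 0.35 to 0.08. The Pde10a probe sets 1419390_at and 1432490_a_at, both below the filter, went from 0.42 to 0.27 (SE 0.09) and from 0.25 to 0.13 (SE 0.06), with 7 of 7 other arrays above the vehicle mean in each. The remaining Pde10a probe sets went from 0.18 to 0.02 and from 0.14 to 0.03, and Adcy5 and Arpp21 stayed within 0.20 of 0 in every probe set. Of all 20 member probe sets, 16 were higher with modafinil with the array and 13 without it. All 14 oligodendrocyte markers tested in PFC were higher with modafinil, with a median of 0.19 against −0.03 over all tested probe sets, and none was called. The part of these lists in the members' values was not tested.

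**Figure D5:**
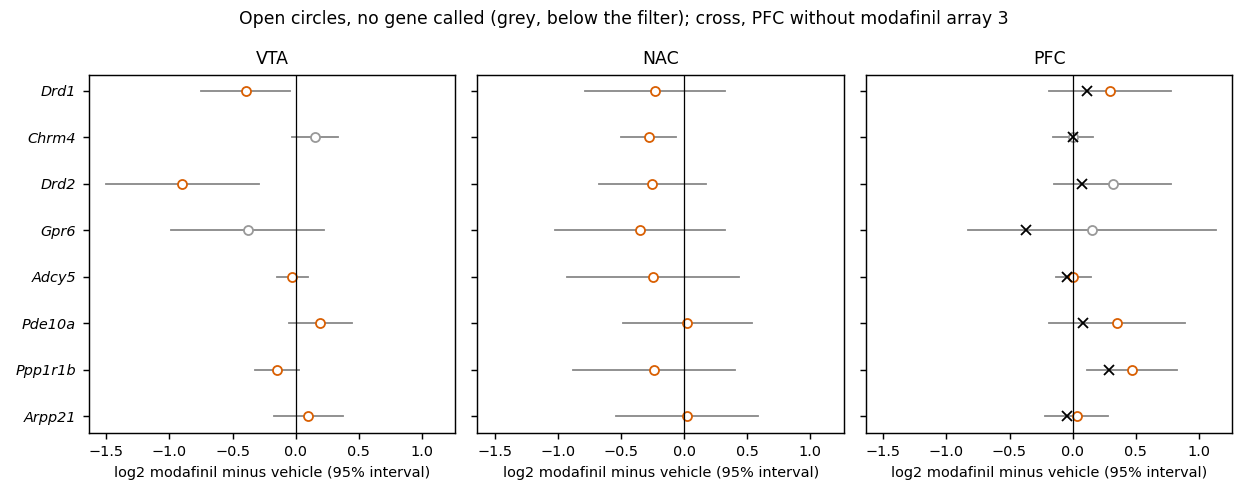
Log2 modafinil minus vehicle for the leading probe set of each gene in VTA, NAC and PFC, with 95% intervals; no gene was called, grey circles lay below the filter and crosses in PFC give the value without modafinil array 3. Before adjustment the intervals of Drd2 (−0.90) and Drd1 (−0.39) in VTA, Chrm4 (−0.28) in NAC and Ppp1r1b (0.47) in PFC leave out 0, and the crosses for Gpr6, Drd2 and Pde10a lie well to the left of their circles.

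The modafinil changes of the regions were then compared with each other. None of 17 member probe sets tested was called between VTA and NAC, where 0.274 percent of all tested probe sets were, between PFC and NAC, where 0 percent were, or between VTA and PFC, where 0.903 percent were (limma). Unadjusted p-values under 0.05 numbered 2, 4 and 4 of 17 among the members, and 3034, 1328 and 3266 of 27022 over all tested probe sets, in that order. The change of Drd2 in VTA minus that in PFC was −1.22 (SE 0.36, limma adjusted p = 0.111). With single arrays left out it ran from −1.46 to −0.97. It was called only without vehicle VTA array 4, where it was −1.46 (limma adjusted p = 0.0303). Over all the alternatives its limma adjusted p ran up to 0.25. In the modafinil comparison within PFC Drd2 lay below the filter. Between VTA and NAC 2 of 11 tested thalamic and midbrain excitatory neuron markers were called, with the higher change in VTA. Between VTA and PFC 5 of these 11 and 2 of 17 cortical neuron markers were called with the higher change in VTA. There 3 of 8 tested dopamine neuron markers were called with the lower change in VTA. The part of these markers in the members' differences was not tested. Of the 49 pathway genes only Rgs4, which shuts off G proteins, was called between VTA and PFC, at 0.87 (limma adjusted p = 0.014). Gpr12 of the related receptors gave 0.58 (adjusted p = 0.0411), a call lost with no filter (0.0548), with the replicate block (0.0657) and with many of the single arrays left out (up to 0.143, without modafinil VTA array 1).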

How the data were processed

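The authors deposited log2 values of 45101 probe sets on 36 arrays, computed with RMA per the submitters' processing notes; the RMA version and the raw intensities were not used here. Probe sets were named through GEO's platform annotation, with 34945 given 1 symbol, 932 several and 9160 none besides 64 controls, and 34741 matched to current RefSeq symbols. Probe sets at or above the 40th percentile of the mean in a fit were tested, 27022 in each. Modafinil was compared with vehicle in the arrays of each region, regions in vehicle arrays, and changes between regions as contrasts of group means, by lmFit and eBayes (limma 3.58.1, R 4.3.3), with Benjamini-Hochberg adjusted p-values at 0.05. Levels in PFC were compared with those of other regions on quantile-normalized values, and all modafinil changes on deposited values. Scripts were tested on simulated data. The number of arrays limits the precision.

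All member probe sets were fitted in every comparison; the leading ones and those the results turn on are printed. List genes were named as up to 2 per direction by smallest p, and likeness by highest correlation; not every gene so chosen is printed. The members, lists, relations, motifs and printed windows were chosen with earlier results of these data known. RefSeq promoter entries were found for 7 of 9 members. Of these, 4 had a window before the outermost start, all of them receptor genes, and these 4 windows are printed. Arrays with the same number showed no clear pairing. The correlations of their deviations ran from −0.419 to 0.200 between treatments within regions. Between VTA and NAC they ran from −0.058 to 0.248, where 1 pair of 5 per treatment was above 0.1. There the best match had the same number for 3 of 5 vehicle and 2 of 5 modafinil arrays. Between treatments it did for 2 of 5 in VTA, 0 of 5 in NAC and 1 of 8 in PFC. Whether VTA and NAC arrays share mice was not settled.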

Additional observations from a re-analysis of the deposited data

Results flagged for a closer look

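An array stood apart, with a gap to its neighbour beyond Dixon's 95 percent critical share of the group's range, in 13 of 120 groups of member values. Chance gives about 1 in 20 independent groups, but these share their arrays and genes. Modafinil PFC array 3 accounts for 9 of them: Drd1 at 10.25, Drd2 at 7.67, Gpr6 at 9.38, Ppp1r1b at 9.72 and 5 probe sets of Pde10a, at 11.61, 9.45, 8.29, 7.30 and 7.06. Vehicle VTA array 1 was high for Chrm4, at 5.35 against 5.14 in the next array, and for Adcy5 1439829_at, at 5.25 against 5.11. Vehicle VTA array 2 was high for Adcy5 1443080_at, at 3.32 against 3.02. Vehicle NAC array 2 was low for Pde10a 1458499_at, at 9.47 against 10.63.

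For 2 genes every modafinil array moved one way from the vehicle mean in one region and the opposite way in another. Chrm4 was higher in VTA and lower in NAC, a difference of 0.44 between the changes; it lay below the filter, so the difference was not tested. Ppp1r1b was lower in VTA and higher in PFC, a difference of −0.62, and this was not called (limma adjusted p = 0.407).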

How the results depend on the processing

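Each result was recomputed with other scaling, filters, variance models, array weights, 1 probe set per gene, a replicate block and each array left out. No member probe set was called for modafinil in NAC or PFC, or between the changes in VTA and NAC or PFC and NAC, under any of these. In VTA the count of 0 became 1 under quantile normalization, the 60th percentile filter and array weights, each time Pde10a 1458499_at, while the count over all probe sets, 70, ran from 0 with no filter to 940 in a fit of all 36 arrays, and from 0 to 172 with an array left out. In PFC the count over all, 14, ran from 0 to 61, and from 0 to 62 with an array left out. Between the changes in VTA and PFC the count of members was 0 to 1 with an array left out, the 1 being Drd2 without vehicle VTA array 4. With 1 probe set per gene fewer could be called by construction: 7 for NAC against VTA, 7 for NAC against PFC and 5 for PFC against VTA.

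The sign turned as follows, and the cause was not tested. On deposited values PFC minus VTA became 0.32 for Adcy5 1455296_at, 0.45 for 1447696_x_at, 0.15 for Pde10a, 0.21 for Ppp1r1b and 0.12 for Prkaca, and NAC minus PFC became −0.26 for Chrm1, called both ways (limma adjusted p = 0.0341 and 0.00117). Of these Adcy5 was called on deposited values (0.0372 and 0.000195), and Pde10a and Prkaca before (−0.26 and −0.39). Under quantile normalization the modafinil change became 0.025 for Adcy5 in VTA, −0.13 for Pde10a and −0.18 for Arpp21 1424248_at in NAC, and the VTA to NAC difference 0.0033 for Arpp21 1442121_at. With array weights the NAC change became −0.10, −0.040 and −0.00073 for Arpp21 1424248_at, 1442121_at and 1440429_at, the PFC change −0.014 for Adcy5, the VTA to NAC difference 0.014 for Drd1, 0.23 for Gpr6 and 0.042 for Arpp21 1442121_at, and the VTA to PFC difference 0.0060 for Pde10a.

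With 1 array left out, the VTA change of Arpp21 1442121_at ran from −0.030 to 0.13. In NAC the range was −0.12 to 0.035 for Adcy5 1447696_x_at, −0.096 to 0.18 for Pde10a, −0.19 to 0.17 for Arpp21 1424248_at, −0.36 to 0.029 for 1451280_at and −0.021 to 0.14 for 1442121_at. In PFC it was −0.043 to 0.042 for Adcy5 and −0.043 to 0.086 for Arpp21 1424248_at. For VTA against NAC it was −0.25 to 0.18 for Gpr6, −0.024 to 0.43 for Adcy5, −0.14 to 0.27 for Ppp1r1b, and −0.066 to 0.29, −0.091 to 0.17 and −0.099 to 0.070 for Arpp21 1424248_at, 1419028_at and 1442121_at. For PFC against NAC it was −0.016 to 0.71 for Gpr6 and −0.14 to 0.22 for Arpp21 1424248_at. For VTA against PFC it was −0.069 to 0.016 for Adcy5 1455296_at, −0.029 to 0.11 for 1447696_x_at, −0.25 to 0.11 for Pde10a and −0.032 to 0.14 for Arpp21 1424248_at.

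With the replicate block the member counts were 0 in each treatment comparison, 16 for NAC against VTA, 17 for NAC against PFC and 12 for PFC against VTA, where Gpr6 was no longer called (limma adjusted p = 0.128); over all probe sets VTA and PFC each fell to 0. The numbers share no stated litter or day, and their correlations were not all above 0.1, so the block cannot be read as a pairing of animals. Pde10a and Gpr6 between PFC and VTA also lost their call with single arrays left out. Members below the filter, Chrm4 between regions among them, have no adjusted p.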
